A study of Mus musculus with 12 samples.

Results

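The annexins are a family of proteins that bind phospholipid membranes when calcium is present, and 8 of their genes (Anxa1, Anxa2, Anxa3, Anxa4, Anxa5, Anxa6, Anxa7 and Anxa11) were followed here across treated and control mouse leukaemia cells. They were chosen by gene symbol from the 33531 symbols in the data, with their RPKM values and changes in these same libraries already known. The choice was therefore not independent of the values below. The list itself has no threshold, and each adjusted p printed is the gene's place in a fit over all genes, not independent support for a response of the family. The data list 10 annexin symbols in all. The others are Anxa8, which lay between 0 and 0.0175 RPKM, and Anxa9, described below. Anxa10 and Anxa13 were not analysed here.

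The cells were the line CMM-tetON-shStat3, a mouse acute myeloid leukaemia that carries the inv(16) fusion of the Cbfb gene, grown in immunodeficient NSG mice after intravenous injection. They are marked by GFP and mCherry and hold a doxycycline-inducible (Dox-inducible) hairpin aimed at Stat3. The 4 groups of 3 libraries were CpG1668+Dox, CpG1668 (a CpG oligodeoxynucleotide that triggers TLR9), Dox, and PBS as the vehicle. Treatment started at about 1% leukaemia cells in the blood and was given daily 6 times by one label and every other day 3 times by another. Cells positive for both colours were sorted from the spleen 1 day after the last treatment. All 4 groups carry the same line and the same hairpin, and Dox was not given to cells without the hairpin, so Dox itself and the hairpin cannot be told apart. Whether each library of a group stands for its own mouse is not stated, so the p-values reflect only the spread between these libraries.

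Each annexin folds into a conserved core of repeats that holds calcium ions and docks on negatively charged lipids, with a short or long amino-terminal tail that differs between members. Anxa1 is abundant in neutrophils and monocytes, where its protein acts through formyl peptide receptors and limits inflammation. Anxa2 pairs with S100a10 at the cell surface, where the complex binds plasminogen. Anxa5 is the protein used in the laboratory to detect phosphatidylserine on dying cells. In the GENCODE M21 annotation of GRCm38 the reading frames are 346 codons for Anxa1, 339 for Anxa2, 323 for Anxa3 and 319 each for Anxa4 and Anxa5. Anxa7 and Anxa11, whose tails are long, have 485 and 503 codons, and Anxa6, in which the core is duplicated, has 673 codons over 26 exons. Of the genes that were called below, Anxa1 (ENSMUSG00000024659.15) lies at chr19:20373428-20390944, Anxa2 (ENSMUSG00000032231.14) at chr9:69453620-69491795, Anxa3 (ENSMUSG00000029484.12) at chr5:96793339-96845966, Anxa5 (ENSMUSG00000027712.13) at chr3:36448923-36475894 and Anxa6 (ENSMUSG00000018340.13) at chr11:54979108-55033445.

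Promoter sequences are shown for Anxa1 and Anxa2, which were both called higher in Dox and in CpG1668+Dox against PBS, and beside them for Anxa5, the most abundant member, which was called lower in CpG1668+Dox. Each is the RefSeq sequence (GRCm38.p6) from 250 bases before to 50 after a RefSeq start site, 5′ to 3′ on the gene's strand. They lie at chr19:20390622-20390921 (minus strand) for Anxa1, chr9:69453433-69453732 (plus strand) for Anxa2 and chr3:36475838-36476137 (minus strand) for Anxa5. These start sites are not the ends of the GENCODE spans given above, and the Anxa1 window lies wholly inside its span. Capitals mark matches to the motifs searched.
Anxa1: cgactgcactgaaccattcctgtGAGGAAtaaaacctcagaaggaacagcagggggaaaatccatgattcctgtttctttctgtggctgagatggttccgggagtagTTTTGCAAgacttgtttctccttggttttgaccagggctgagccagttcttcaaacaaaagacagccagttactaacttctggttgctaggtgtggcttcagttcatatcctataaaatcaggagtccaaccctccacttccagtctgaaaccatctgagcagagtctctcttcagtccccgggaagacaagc
Anxa2: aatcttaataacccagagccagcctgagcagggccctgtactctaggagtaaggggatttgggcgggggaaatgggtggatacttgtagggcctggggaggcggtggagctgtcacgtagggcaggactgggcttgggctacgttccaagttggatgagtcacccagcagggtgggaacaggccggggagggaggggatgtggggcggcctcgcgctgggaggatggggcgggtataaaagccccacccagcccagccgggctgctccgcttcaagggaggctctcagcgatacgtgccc
Anxa5: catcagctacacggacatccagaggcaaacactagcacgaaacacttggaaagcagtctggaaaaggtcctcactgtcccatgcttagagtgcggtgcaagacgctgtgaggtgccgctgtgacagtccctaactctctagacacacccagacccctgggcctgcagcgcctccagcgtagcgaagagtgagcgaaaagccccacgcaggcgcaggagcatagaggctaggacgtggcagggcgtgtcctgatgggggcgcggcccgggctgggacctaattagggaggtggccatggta
The 4 motifs, searched on both strands, were a STAT site (TTCNNNGAA), the core-binding factor site (TGTGGT), a C/EBP site (TTGCNNAA) and a PU.1 site (GAGGAA). They stood in 8.3%, 16.8%, 10.8% and 28.3% of the 32851 promoters of the same length. The Anxa1 promoter held a PU.1 match at positions -227 to -222 and, on the opposite strand, a C/EBP match at -143 to -136, counted from the start site. The Anxa2 and Anxa5 promoters held no match, and they are richer in G and C (63.7% and 60.3% of bases) than the Anxa1 promoter (47.3%). The 2 matches do not overlap. Anxa3 and Anxa6 have no entry in the table. Of the 6 members with a promoter, 2 had a C/EBP match (Anxa1 and the second promoter of Anxa4), 2 had a PU.1 match (Anxa1 and Anxa11), and 0 had a STAT or core-binding factor match. A match describes letters in this window and is not a measured binding site.

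The depth was estimated at 30450000 to 35030000 reads per library, and 11945 to 12454 genes reached 1 RPKM in each library. RPKM scales reads by transcript length and by library size, so levels can be set side by side between genes. Stat3, the target of the hairpin, was not lower in the libraries labelled with Dox. It lay at 19.0 to 19.7 RPKM in CpG1668+Dox libraries, 17.6 to 18.5 in CpG1668, 18.8 to 19.1 in Dox and 16.8 to 17.9 in PBS, and was called higher in Dox against PBS (log2 change 0.13, limma adjusted p = 0.044). The groups below are therefore those of the labels. Leukaemia progenitor genes such as Kit, Myb and Runx1 were present in every library, with a summed RPKM of 224.4 to 254.5 over 8 genes, while Cd34 was low, at 0.291 to 0.487 RPKM in CpG1668+Dox, 0.192 to 0.317 in CpG1668, 0.0991 to 0.213 in Dox and 0.0336 to 0.0491 in PBS. Markers of NK cells (summed RPKM at most 0.247) and stromal cells (at most 0.219) were near 0.

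Anxa5 was by far the most abundant annexin in every group, and the treated groups differed from PBS mainly in the members that were scarce in PBS. In PBS libraries Anxa5 averaged 131 ± 1.15 RPKM (SD, n = 3, as for all group means). Anxa6 (25.2 ± 1.79) and Anxa11 (24.7 ± 0.77) came next in PBS, with overlapping libraries, so their order is not resolved. Anxa7 (10.2 ± 0.43), Anxa2 (8.48 ± 0.61), Anxa4 (7.79 ± 0.293) and Anxa1 (2.15 ± 0.661) followed, with no overlap between neighbours. Anxa3 was the lowest in PBS at 0.203 ± 0.0701 RPKM. In CpG1668+Dox libraries Anxa1 stood second in mean level at 37.7 ± 13.9 RPKM, although its libraries overlapped those of Anxa6 (29.9 ± 1.45) and Anxa11 (24.8 ± 0.329).

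**Figure D1:**
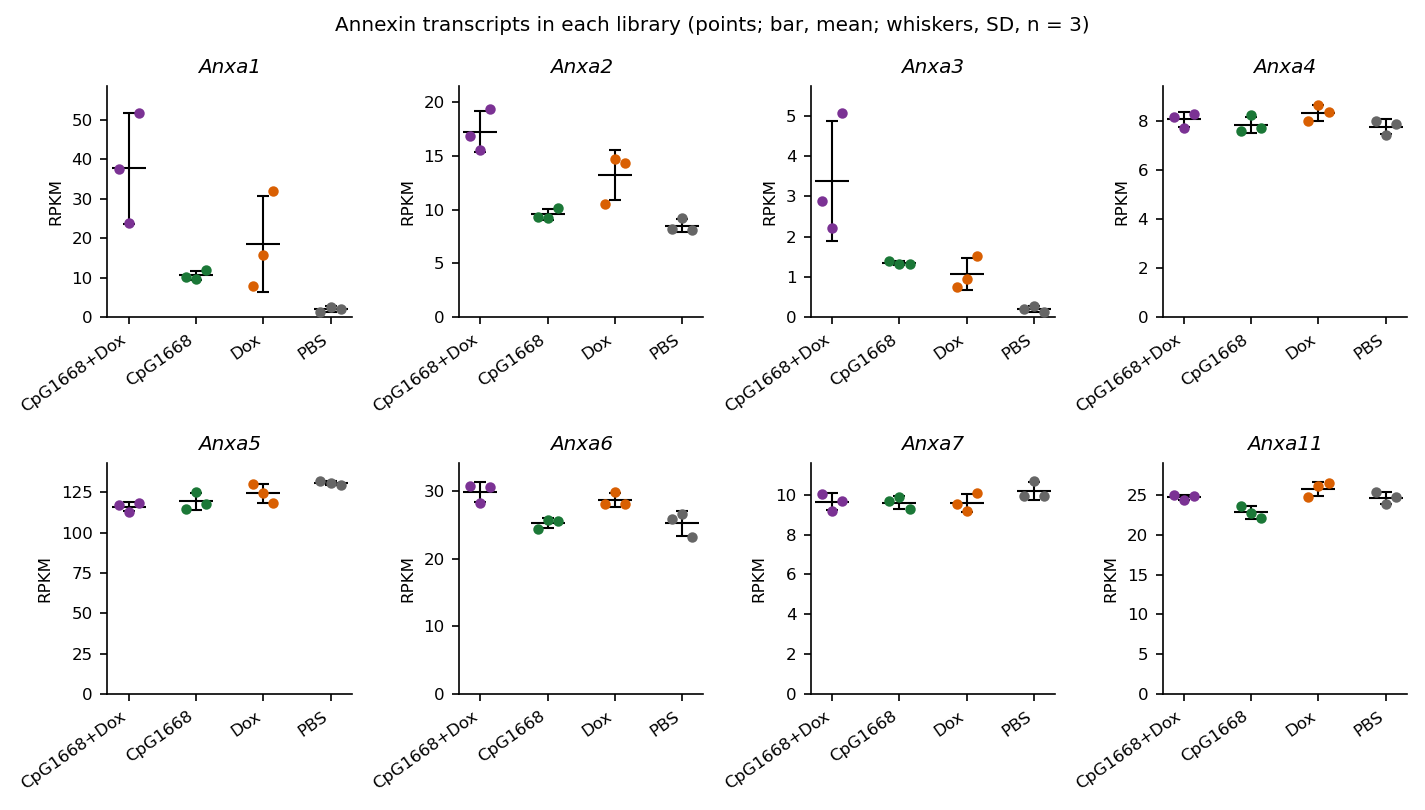
RPKM of the 8 annexin genes (1 panel each, vertical axis from 0) in the 12 libraries of the CpG1668+Dox, CpG1668, Dox and PBS groups. Points are libraries, horizontal bars are means and whiskers are SD (n = 3). Anxa1 and Anxa3 stand higher in every treated library than in any PBS library, while Anxa4, Anxa7 and Anxa11 stay within narrow ranges.

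Anxa1, the ligand of formyl peptide receptors, showed the largest log2 change of RPKM + 1 of the family against PBS. By ratio of means Anxa3 changed more in CpG1668 (6.63 times for Anxa3, 4.95 for Anxa1). It had 37.5, 23.8 and 51.7 RPKM in CpG1668+Dox libraries, 10.2, 9.78 and 11.9 in CpG1668 libraries, 8.08, 15.8 and 32.0 in Dox libraries, and 1.45, 2.76 and 2.23 in PBS libraries. Every treated library lay above every PBS library. The 3 CpG1668 libraries were close to each other, whereas the Dox libraries spread from below the CpG1668 libraries to above the lowest CpG1668+Dox library. Against PBS, Anxa1 rose 17.5-fold in means in CpG1668+Dox, with a log2 change of RPKM + 1 of 3.57 ± 0.39 (SE, limma adjusted p = 8.1e-05). It rose 8.67-fold in Dox (2.47 ± 0.39, adjusted p = 0.0047) and 4.95-fold in CpG1668 (1.90 ± 0.39, adjusted p = 0.017). The PBS level of Anxa1 rests on an estimated 77 to 144 reads per library, so it was well above the limit of detection.

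Anxa3, an annexin of neutrophils and other myeloid cells, was also highest in CpG1668+Dox and lowest in PBS, at far lower levels, but its CpG1668 mean lay above its Dox mean, with overlapping libraries. It had 2.88, 2.23 and 5.06 RPKM in CpG1668+Dox libraries, 1.40, 1.31 and 1.32 in CpG1668 libraries, 0.747, 0.955 and 1.51 in Dox libraries, and 0.202, 0.274 and 0.134 in PBS libraries. No treated library overlapped PBS, and no CpG1668+Dox library overlapped the other groups. Against PBS the means were 16.7 times as high in CpG1668+Dox (log2 change 1.82 ± 0.19, limma adjusted p = 7e-05). They were 6.63 times as high in CpG1668 (0.96 ± 0.19, adjusted p = 0.015) and 5.28 times as high in Dox (0.77 ± 0.19, adjusted p = 0.042). The pseudocount of 1 RPKM shrinks these log2 values, since the PBS levels of 0.134 to 0.274 RPKM lie below it. Those PBS levels rest on an estimated 7 to 14 reads per library. Anxa3 passed the filter of a mean RPKM of 1 only through the treated groups, so it could pass only by differing.

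Anxa2, the plasminogen-binding partner of S100a10, was higher in the Dox groups and little different with CpG1668 alone. It had 16.8, 15.5 and 19.3 RPKM in CpG1668+Dox libraries, 9.34, 9.19 and 10.1 in CpG1668 libraries, 10.5, 14.7 and 14.3 in Dox libraries, and 8.17, 9.19 and 8.09 in PBS libraries. The CpG1668+Dox libraries stood above all others, and the Dox libraries above both CpG1668 and PBS. Against PBS, Anxa2 rose 2.03-fold in means in CpG1668+Dox (log2 change 0.94 ± 0.11, limma adjusted p = 0.00014) and 1.55-fold in Dox (0.57 ± 0.11, adjusted p = 0.012). In CpG1668 it was 1.13 times the PBS mean, with overlapping libraries and no call (0.15 ± 0.11, adjusted p = 0.48).

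Anxa6 and Anxa5, the remaining members with a call, moved by small amounts and in opposite directions. Anxa6, the annexin with the duplicated core, had 30.8, 28.2 and 30.6 RPKM in CpG1668+Dox libraries, 24.4, 25.7 and 25.6 in CpG1668, 28.1, 29.9 and 28.1 in Dox, and 25.9, 26.6 and 23.2 in PBS. Both Dox groups lay above both groups without Dox, with no overlap. Anxa6 rose 1.18-fold in CpG1668+Dox against PBS (log2 change 0.24 ± 0.05, limma adjusted p = 0.012). In Dox against PBS it was 1.14 times as high without passing (0.18 ± 0.05, adjusted p = 0.076), and in CpG1668 against PBS the change was 0.00 (adjusted p = 0.99). Anxa5, the phosphatidylserine binder, had 117, 113 and 118 RPKM in CpG1668+Dox libraries, 115, 125 and 118 in CpG1668, 130.1, 125 and 118 in Dox, and 132, 131 and 129.7 in PBS. The PBS libraries were the tightest and lay above all CpG1668+Dox and CpG1668 libraries. Anxa5 fell to 0.888 of the PBS mean in CpG1668+Dox (log2 change -0.17 ± 0.04, limma adjusted p = 0.019), and its changes in CpG1668 (-0.13, adjusted p = 0.10) and Dox (-0.07, adjusted p = 0.38) did not pass.

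Anxa4, Anxa7 and Anxa11 passed in none of the 7 contrasts, the interaction included. Anxa4, which is known from epithelial secretory cells, ran from 7.46 to 8.68 RPKM over all 12 libraries. Anxa7, whose long tail binds penta-EF-hand proteins, ran from 9.18 to 10.7 RPKM. Anxa11, which carries a related tail, had 25.0, 24.4 and 24.9 RPKM in CpG1668+Dox libraries, 23.7, 22.7 and 22.1 in CpG1668, 24.7, 26.2 and 26.5 in Dox, and 25.4, 23.9 and 24.8 in PBS. Its CpG1668 libraries were the lowest, below every library of the other groups, at 0.885 of the Dox mean (log2 change -0.17 ± 0.04, limma adjusted p = 0.057) and 0.927 of the PBS mean (-0.11 ± 0.04, adjusted p = 0.14). Anxa9 lay between 2.11 and 3.11 RPKM and was called in no contrast, but its exons overlap those of Mindy1 on the other strand (12.8 to 14.4 RPKM), and whether the counting used strand is not given in the sources used here. Among the 8 members, transcripts that overlap exons and are listed in the data stayed at or below 0.293 RPKM (Gm44036 at Anxa4, Gm42603 at Anxa3, Anxa11os at Anxa11).

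**Figure D2:**
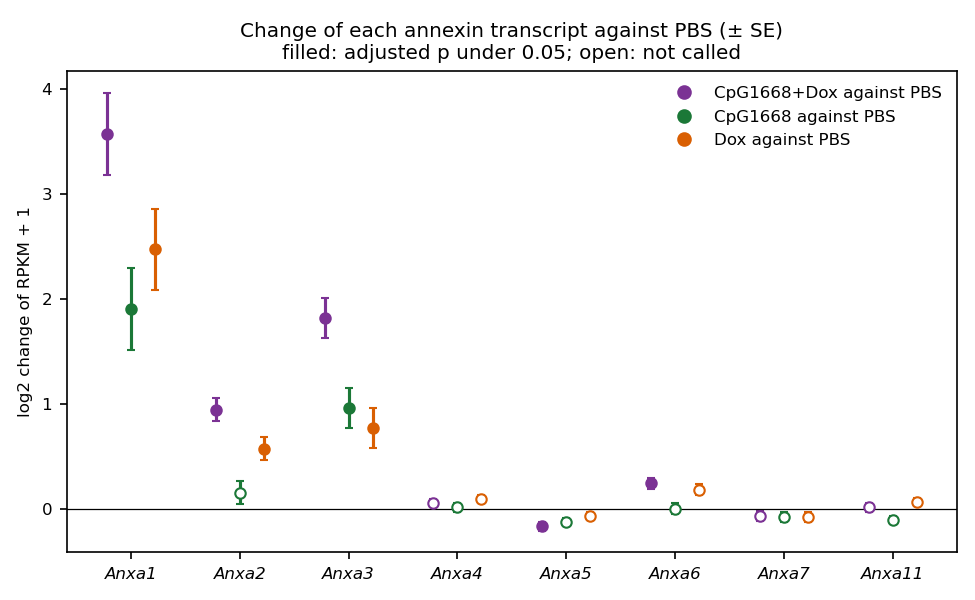
Change of each annexin gene against PBS as the log2 change of RPKM + 1 (vertical axis) with its SE, for CpG1668+Dox, CpG1668 and Dox. Filled points passed an adjusted p of 0.05 and open points did not. Anxa1, Anxa2 and Anxa3 reach 3.57, 0.94 and 1.82 in CpG1668+Dox, and the other 5 members lie between -0.17 and 0.24 in all 3 contrasts.

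Counted over the family, 4 of 8 members were called higher and 1 lower in CpG1668+Dox against PBS, where 9.13% of the 12167 genes tested were called higher and 6.4% lower. In CpG1668 against PBS 2 members were called higher and 0 lower, against 3.06% and 2.83% of all genes. In Dox against PBS 3 were called higher and 0 lower, against 3.95% and 2.04% of all genes. The median log2 change of the 8 members was 0.14 in CpG1668+Dox, 0.01 in CpG1668 and 0.14 in Dox, beside 0.00, -0.01 and 0.01 over all genes. The members were chosen with these values known, so nothing is read from the counts. The 3 comparisons share the PBS libraries and are not independent of each other.

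The calls against PBS did not all hold when a library was left out. In CpG1668+Dox against PBS, Anxa1, Anxa2, Anxa3 and Anxa6 were called whichever library was left out, while Anxa5 was lost without PBS 1 (adjusted p = 0.056), PBS 2 (0.055) or CpG1668+Dox 2 (0.075). In CpG1668 against PBS, Anxa1 was lost without PBS 1 (adjusted p = 0.062), CpG1668 1 (0.051) or CpG1668 3 (0.064), and Anxa3 without PBS 3 (0.051), CpG1668 1 (0.054) or CpG1668 3 (0.051). In Dox against PBS, Anxa2 was lost without Dox 2 (0.059) or Dox 3 (0.053), and Anxa3 without PBS 1 (0.095), PBS 2 (0.089), PBS 3 (0.12), Dox 2 (0.10) or Dox 3 (0.14). With no filter on low RPKM, Anxa1 (0.068) and Anxa3 (0.06) were lost in CpG1668 against PBS, and Anxa2 (0.061) and Anxa3 (0.14) in Dox against PBS, and Anxa2 also with only the Dox and PBS groups in the fit (0.052). Quantile normalization ended the calls of Anxa3 in CpG1668 (0.078) and in Dox (0.24) against PBS.

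With Dox added to CpG1668, 4 members stood higher than with CpG1668 alone. In CpG1668+Dox against CpG1668, Anxa1 rose 3.54-fold in means (log2 change 1.67 ± 0.39, limma adjusted p = 0.04) and Anxa3 rose 2.52-fold (0.85 ± 0.19, adjusted p = 0.038). Anxa2 rose 1.80-fold (0.78 ± 0.11, adjusted p = 0.0058) and Anxa6 rose 1.18-fold (0.23 ± 0.05, adjusted p = 0.038). No CpG1668+Dox library overlapped a CpG1668 library for these 4 genes, nor for Anxa11, which was not called. How many of all genes separate in this way was not counted, so nothing is read from it. Anxa5 had nearly equal means (0.973 times, limma adjusted p = 0.74). These 4 calls stood beside 3.07% of all genes called higher and 0.197% called lower, and the median change of the 8 members was 0.17 beside 0.02 over all genes. Anxa1 (adjusted p 0.082 to 0.17), Anxa3 (0.089 to 0.12) and Anxa6 (0.077 to 0.15) each lost the call when any 1 of the 6 libraries other than CpG1668+Dox 2 was left out, and Anxa6 also lost it with the replicate number as a block (0.075). With no filter on low RPKM Anxa2 alone was called, and with only these 2 groups in the fit Anxa3 (0.10) and Anxa6 (0.053) were lost. Anxa3 was also lost under quantile normalization (0.053) and a pseudocount of 0.1 (0.067). Anxa1 just missed the threshold under median-of-ratios scaling (0.051), quantile normalization (0.052) and a pseudocount of 0.1 (0.056).

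With CpG1668 added to Dox, Anxa3 was the only member called, at 3.16 times the Dox mean (CpG1668+Dox against Dox, log2 change 1.05 ± 0.19, limma adjusted p = 0.011), and that call was lost without Dox 1 (0.93, adjusted p = 0.05) and with only these 2 groups in the fit (adjusted p = 0.11). In this comparison 2.81% of all genes were called higher and 0.666% lower, and the median change was 0.03 for the members and -0.01 for all genes. Anxa1 was 2.02 times as high with overlapping libraries (1.11 ± 0.39, adjusted p = 0.21), and it was called only without Dox 3 (1.58, adjusted p = 0.025). Anxa2 was higher in every CpG1668+Dox library than in any Dox library without passing (0.37 ± 0.11, adjusted p = 0.12).

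Set against each other, CpG1668 and Dox alone gave no member a call. Anxa2 was lower in all CpG1668 than in all Dox libraries (log2 change -0.41 ± 0.11, limma adjusted p = 0.091), Anxa1 was -0.56 ± 0.39 (adjusted p = 0.54), and Anxa3 was 0.20 ± 0.19 (adjusted p = 0.70) in CpG1668 against Dox. Over all genes 0.353% were called higher and 1.21% lower, with 1853 genes and 3 members at an unadjusted p under 0.05. The median change was -0.12 for the members and -0.02 for all genes. Without Dox 1, Anxa2 (-0.56, adjusted p = 0.016) and Anxa11 (-0.20, adjusted p = 0.04) were called lower. The interaction, which asks whether the effect of both treatments differs from the sum of the single effects on the log2 scale, was called by limma for 0 members and 0% of all genes. At an unadjusted p under 0.05 it counted 812 genes and 0 members. Its value was -0.80 ± 0.55 for Anxa1, 0.22 for Anxa2 and 0.08 for Anxa3, all with adjusted p of 0.87 or more.

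Genes of late neutrophils moved with Anxa1 from library to library. The list of 15 late neutrophil markers, among them Ngp, Ltf, S100a8 and S100a9, was detected in full in every group. Its summed RPKM was 3064.6, 1737.4 and 4561.9 in CpG1668+Dox libraries, 649.8, 655.9 and 847.8 in CpG1668, 583.9, 1310.3 and 2322.5 in Dox, and 108.4, 220.1 and 153.4 in PBS. S100a9, S100a8 and Ngp made up most of the sum, with 2043.4, 1086.9 and 680.4 RPKM in CpG1668+Dox 3. Over the 12 libraries S100a9 ranged 43.8-fold, but Chil3 ranged 60.2-fold, Mmp9 16.2-fold and Retnlg 15.2-fold. The sum ranged 42.1-fold and Anxa1 ranged 35.6-fold, but Anxa1 as a share of the sum stayed between 1.13% and 1.57%. The share thus sets Anxa1 mainly beside these 3 genes. That share was 1.23%, 1.37% and 1.13% in CpG1668+Dox, 1.57%, 1.49% and 1.41% in CpG1668, 1.38%, 1.21% and 1.38% in Dox, and 1.34%, 1.26% and 1.46% in PBS. The Dox library lowest in Anxa1 was the lowest in the marker sum, and the order of libraries was the same within CpG1668+Dox, Dox and PBS. In RNA from bulk cells, a larger share of a cell type and more RNA per cell cannot be told apart. The cells were sorted for GFP and mCherry, and whether host cells remained among them was not tested.

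Anxa2 and Anxa3 followed these markers less closely in proportion. Anxa3 ranged 37.8-fold and, as a share of the late neutrophil sum, varied 3.31-fold, between 0.0652% and 0.216%. Set against the summed RPKM of 12 monocyte markers, Anxa3 varied 2.79-fold. That monocyte sum was 293.5 to 426.7 in CpG1668+Dox, 133.3 to 155.4 in CpG1668, 103.5 to 173.6 in Dox and 24.9 to 42.5 in PBS, and none of its genes was at 0. Lyz2 made up most of the monocyte sum, at 227.3 to 347.7 RPKM in CpG1668+Dox and 15.51 to 30.35 in PBS. Anxa2 ranged 2.38-fold, and its share of the late neutrophil sum varied 17.8-fold. The summed RPKM of 10 splenic macrophage markers was 32.0 to 50.5 in CpG1668+Dox, 26.9 to 39.0 in CpG1668, 26.7 to 32.4 in Dox and 17.3 to 30.2 in PBS. The erythroid sum ran the other way, at 3053.0 to 5676.8 in CpG1668+Dox and 5783.2 to 10087.0 in CpG1668. It was 2871.8 to 7141.2 in Dox and 14129.9 to 19059.6 in PBS (11 of 12 genes listed). The globin genes Hbb-bs, Hba-a2, Hba-a1 and Hbb-bt made up almost all of it. Klf1 averaged 47.4 RPKM in CpG1668+Dox, 47.9 in CpG1668, 53.3 in Dox and 49.0 in PBS. Against PBS, 9 of the 11 genes were called lower in CpG1668+Dox, 3 in CpG1668 and 7 in Dox (6.4%, 2.83% and 2.04% of all genes). B cell markers, of which Ighm alone passed the filter, summed to 6.75 to 10.1 in CpG1668+Dox, 3.63 to 4.44 in CpG1668, 2.43 to 2.80 in Dox and 0.761 to 1.11 in PBS. Over all 12 libraries the summed RPKM lay between 43.5 and 54.4 for megakaryocyte and platelet markers, and the sums ranged 1.17-fold for T cell markers and 1.21-fold for endothelial markers. The megakaryocyte and platelet sum was mostly Itga2b and Gp1ba, while Pf4, Ppbp, Gp9 and Gp6 each stayed at or below 0.304 RPKM. The T cell sum was almost all Lat (66.0 to 77.7 RPKM), the only T cell gene past the filter. The endothelial sum was mostly Egfl7 and Tek. Cd3d, a defining T cell gene, had 0.341 to 0.552 RPKM in CpG1668+Dox, 0.0531 to 0.267 in CpG1668, 0.207 to 0.314 in Dox and 0 to 0.0859 in PBS, and Cd3e stayed at or below 0.0158.

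With the mean of the late neutrophil markers as a covariate, limma called 0 of the 8 members in each of the 7 contrasts. At an unadjusted p under 0.05 there were 0 to 5 members. Calls over all genes fell as well, from 1890 to 16 for CpG1668+Dox against PBS. They fell from 728 to 1 for Dox and from 716 to 105 for CpG1668, each against PBS. In no other contrast were more than 168 of the 12167 genes called. Few genes of any kind were thus called, so nothing about the annexins is read from the 0 of 8. With the covariate the change of Anxa1 against PBS was 0.13 in CpG1668+Dox (adjusted p = 0.82), 0.36 in CpG1668 (0.11) and 0.11 in Dox (0.79). Anxa3 was 0.47 in CpG1668+Dox against PBS (adjusted p = 0.67) and Anxa2 was 0.13 (0.84). The covariate moves with the groups, so what it removes and what treatment does cannot be told apart, and the part of such cells in the annexin levels was not tested.

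**Figure D3:**
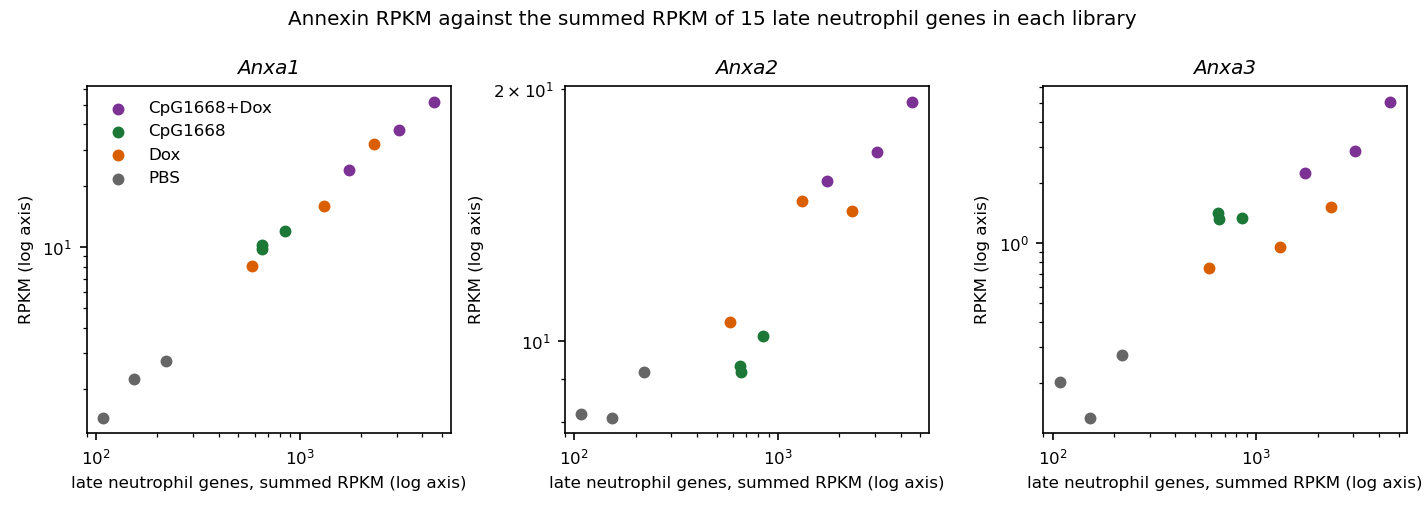
RPKM of Anxa1, Anxa2 and Anxa3 (vertical, log axis) against the summed RPKM of 15 late neutrophil genes (horizontal, log axis) in the 12 libraries, coloured by group. Anxa1 lies close to a line of constant share (1.13% to 1.57% of the sum), Anxa3 scatters more, with the CpG1668 libraries above the Dox library of similar sum, and Anxa2 covers a 2.38-fold range only.

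The make-up of the annexin pool differed between groups more than its total did. The summed RPKM of the 8 genes was 246.8 ± 21.9 in CpG1668+Dox, 206.5 ± 5.28 in CpG1668, 229.7 ± 9.7 in Dox and 209.5 ± 3.06 in PBS. Anxa5 made up 47.3 ± 3.12% of the sum in CpG1668+Dox, 57.8 ± 1.06% in CpG1668, 54.3 ± 4.85% in Dox and 62.4 ± 0.607% in PBS. Anxa1 made up 15.0 ± 4.34% in CpG1668+Dox, 5.16 ± 0.587% in CpG1668, 7.97 ± 4.94% in Dox and 1.03 ± 0.314% in PBS. Anxa2 made up 6.97 ± 0.219% in CpG1668+Dox, 4.63 ± 0.29% in CpG1668, 5.72 ± 0.83% in Dox and 4.05 ± 0.258% in PBS, with CpG1668 and PBS libraries overlapping. Anxa3 made up 1.35 ± 0.477% in CpG1668+Dox, 0.652 ± 0.0395% in CpG1668, 0.462 ± 0.152% in Dox and 0.0967 ± 0.0323% in PBS. For Anxa1 and Anxa3 every treated library had a larger share than any PBS library, and for Anxa5 a smaller one. Anxa6 averaged 12.1 ± 0.626% in CpG1668+Dox, 12.2 ± 0.168% in CpG1668 and 12.5 ± 0.671% in Dox, and lay between 11.3% and 12.6% in the PBS libraries.

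**Figure D4:**
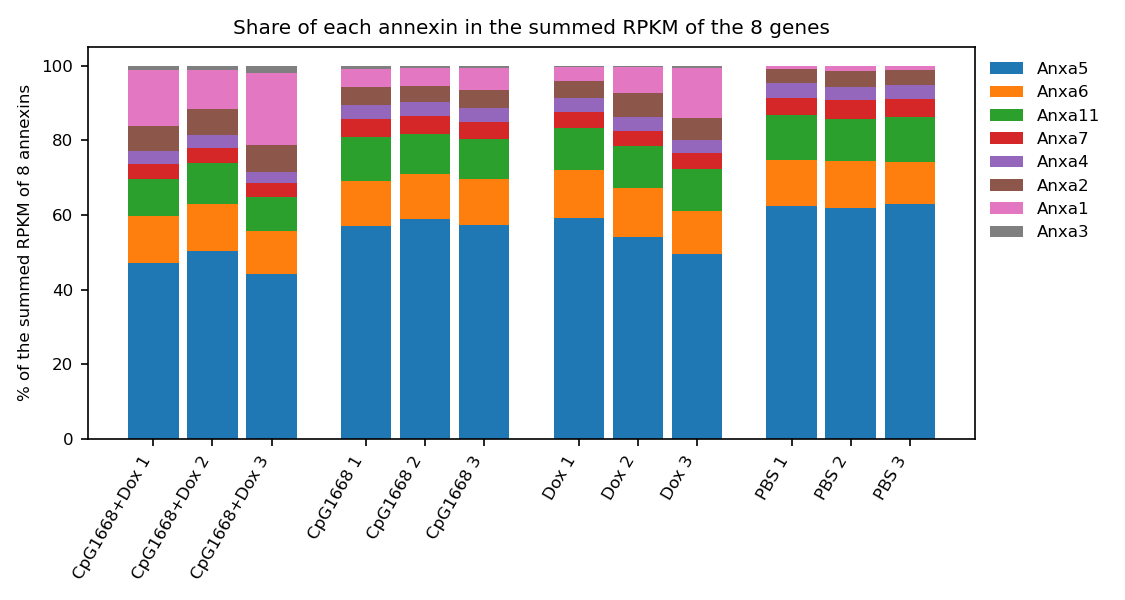
Share of each annexin in the summed RPKM of the 8 genes (vertical axis, percent; colours are genes) in the 12 libraries by group. Anxa5 fills 44.2% to 63.0% of each bar, and Anxa1 widens to between 10.6% and 19.3% in the CpG1668+Dox libraries, against 0.687% to 1.31% in PBS.

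The genes most like each member in their pattern over the 12 libraries were taken from 6420 genes that averaged 5 RPKM or more, by Pearson's r of log2(RPKM + 1), as a description without a test. For Anxa1 they were S100a9 (r = 0.998), S100a8 (0.997) and Ltf (0.996), all neutrophil genes of the marker list. For Anxa3 they were Syk (0.981), a kinase downstream of immune receptors, Ncf4 (0.981), a subunit of the phagocyte NADPH oxidase, and Sla (0.98). For Anxa2 they were Lgals3 (0.975), which encodes galectin 3, Gnai2 (0.973) and Tmsb4x (0.969), which encodes an actin-binding thymosin. Anxa6 was nearest to Gnb2 (0.962), Anxa11 to Tmem101 (0.944), Anxa5 to Creg1 (0.908), Anxa4 to Frmd8 (0.874) and Anxa7 to Nfe2 (0.86). The libraries of a group share their treatment, so these values largely repeat the differences between groups where a gene has them.

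Among S100 proteins that partner annexins, S100a4 and S100a6 were called higher than PBS in all 3 treated groups. S100a10, which binds Anxa2, was abundant but was called in none of the contrasts, with 88.9 ± 3.56 RPKM in CpG1668+Dox, 80.5 ± 4.06 in CpG1668, 94.3 ± 6.70 in Dox and 91.1 ± 2.37 in PBS. S100a11, which binds Anxa1, had 57.9 ± 8.86 RPKM in CpG1668+Dox, 34.9 ± 1.74 in CpG1668, 42.6 ± 8.71 in Dox and 31.4 ± 2.92 in PBS. It rose in CpG1668+Dox against PBS (log2 change 0.85, limma adjusted p = 0.0015) and against CpG1668 (0.71, adjusted p = 0.021). S100a4, another calcium-binding protein that can bind Anxa2, had 17.9 ± 1.51 RPKM in CpG1668+Dox, 7.88 ± 0.431 in CpG1668, 9.20 ± 2.54 in Dox and 2.47 ± 0.538 in PBS, and no treated library overlapped PBS. It rose against PBS in CpG1668+Dox (2.45, adjusted p = 1.4e-06), in CpG1668 (1.37, adjusted p = 0.00041) and in Dox (1.54, adjusted p = 0.00063). S100a6, a close relative, had 11.9 ± 1.23 RPKM in CpG1668+Dox, 4.72 ± 0.667 in CpG1668, 7.57 ± 2.04 in Dox and 2.83 ± 0.0361 in PBS, and no treated library overlapped PBS. Of the 4 genes, 3 were called higher in CpG1668+Dox, 2 in CpG1668 and 2 in Dox against PBS, beside 9.13%, 3.06% and 3.95% of all genes. Their median changes were 1.30, 0.36 and 0.77, beside 0.00, -0.01 and 0.01 over all genes. The list was chosen with earlier results of these data known, so nothing is read from the counts.

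The list of formyl peptide receptors, through which Anxa1 acts, and of lipid mediator genes had 6 of 8 genes above the filter. In CpG1668+Dox against PBS 4 of the 6 were called higher and 0 lower, in Dox 1 and in CpG1668 0. Over all genes 9.13%, 3.95% and 3.06% were called higher in CpG1668+Dox, Dox and CpG1668. In CpG1668 3 of the 6 had an unadjusted p under 0.05, beside 2491 of the 12167 genes. Like Anxa3, Fpr1 and Fpr2 passed the filter only through the treated groups, where they are high, so nothing is read from these counts. Fpr1, a formyl peptide receptor, had 3.23 ± 1.06 RPKM in CpG1668+Dox, 1.14 ± 0.327 in CpG1668, 1.70 ± 1.11 in Dox and 0.403 ± 0.164 in PBS (CpG1668+Dox against PBS, log2 change 1.57, limma adjusted p = 0.0024). Fpr2, the receptor through which Anxa1 is known to signal, had 5.06 ± 1.69 RPKM in CpG1668+Dox, 1.85 ± 0.367 in CpG1668, 3.56 ± 2.82 in Dox and 0.641 ± 0.192 in PBS (1.85, adjusted p = 0.0042). In Dox against PBS neither passed (Fpr1 0.87, adjusted p = 0.094; Fpr2 1.30, adjusted p = 0.054). Alox5ap, which presents arachidonic acid to 5-lipoxygenase, rose in CpG1668+Dox (0.50, adjusted p = 0.00024) and in Dox (0.30, adjusted p = 0.017), and Ptgs1, a cyclooxygenase, in CpG1668+Dox (0.32, adjusted p = 0.042).

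**Figure D5:**
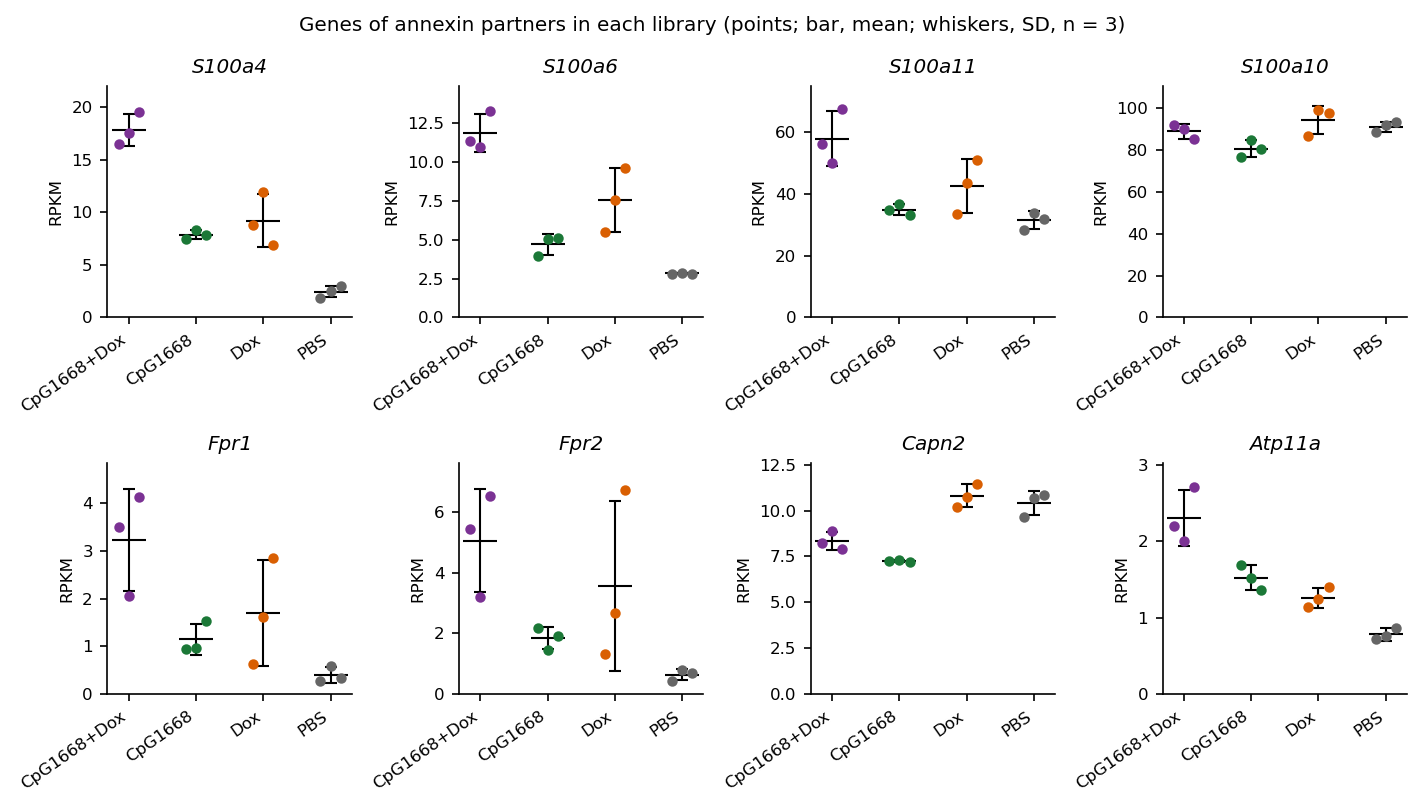
RPKM of 8 genes whose proteins bind annexins or act in the same processes (1 panel each, vertical axis from 0) in the 12 libraries by group. Points are libraries, horizontal bars are means and whiskers are SD (n = 3). S100a4, S100a6 and Atp11a are higher in every treated library than in any PBS library, S100a10 stays between 76.5 and 98.9 RPKM, and Capn2 is lowest in the CpG1668 libraries.

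In CpG1668+Dox against PBS the other partner lists had at most 2 calls each. Over all genes 9.13% were called higher and 6.4% lower in that contrast. The shares were 3.06% and 2.83% in CpG1668, and 3.95% and 2.04% in Dox, each against PBS. Nothing is read from the counts of these lists. Of the plasmin system 3 of 8 genes passed the filter. Plaur, the urokinase receptor, rose in CpG1668+Dox against PBS (log2 change 0.54, limma adjusted p = 0.0009), while Plgrkt, a plasminogen receptor, fell by 0.18 (adjusted p = 0.012). Ahnak, a large scaffold protein that binds the Anxa2 complex, fell by 0.66 in CpG1668 against PBS (adjusted p = 0.015). Of 6 penta-EF-hand genes tested, the calpain subunit Capn2 had 8.34 ± 0.476 RPKM in CpG1668+Dox, 7.26 ± 0.0661 in CpG1668, 10.8 ± 0.629 in Dox and 10.4 ± 0.646 in PBS, and fell by 0.29 in CpG1668+Dox (adjusted p = 0.0037) and by 0.46 in CpG1668 (adjusted p = 0.00044) against PBS. The 6 membrane repair genes tested, among them the ESCRT genes Chmp4b and Vps4a, had 0 calls by limma in the 6 pairwise contrasts. In these contrasts 0.353% to 9.13% of all genes were called higher and 0.197% to 6.4% lower. At an unadjusted p under 0.05 there were 0 to 1 of the 6, beside 1663 to 3607 of the 12167 genes. Of 8 phosphatidylserine transport genes, the flippase gene Atp11a was the only one called in a contrast against PBS, with 2.30 ± 0.363 RPKM in CpG1668+Dox, 1.52 ± 0.162 in CpG1668, 1.26 ± 0.129 in Dox and 0.779 ± 0.0804 in PBS. It rose in CpG1668+Dox (0.89, adjusted p = 3e-05), CpG1668 (0.50, adjusted p = 0.0059) and Dox (0.34, adjusted p = 0.038), and it too passed the filter only through the treated groups. The scramblase genes Xkr8, Ano6 and Plscr1 were not called.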

How the data were processed

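RNA-seq of 12 libraries was deposited by the authors as RPKM (reads scaled to gene length and to library size) for 33531 gene symbols. STAR 2.7.9, Partek 7.18.0723 and mm10 appear in the submitters' processing notes, without their roles. The sources used here do not give the annotation, strand setting or filters. Titles gave each sample's group.

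The 12167 genes that averaged 1 RPKM or more across all 12 libraries were tested. Their log2(RPKM + 1) values entered limma 3.58.1 (R 4.3.3) as 4 group means with 8 residual degrees of freedom and a trended empirical Bayes prior. The 7 contrasts were the interaction and the 6 pairs of groups. Benjamini-Hochberg adjustment ran over all genes of a contrast, and calls needed an adjusted p under 0.05. The pseudocount of 1 understates the change of low genes, so ratios of means are given beside it. Shares, sums and correlations were computed in Python 3.11.15.

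Depth was estimated from the step that 1 read makes in genes with a single transcript in GENCODE M21 (GRCm38). Within 0.05 of a whole read lay 72.2% to 73.5% of 4852 to 5188 genes used, so reads were not recovered for each gene. On 1 kb, 3 reads would give 0.0856 to 0.0985 RPKM, a limit that covers counting error only. GENCODE M21 holds 32391 of these symbols. Libraries of a group correlated at 0.992 to 0.996, and 0 pairs were identical.

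The members, partner lists and 11 marker lists were chosen with earlier results of these data known. Members are named throughout. Partner genes named are the up to 4 per list with the largest absolute t in any contrast against PBS. Fpr, S100 and marker genes are given as examples of their lists. Alternatives were a pseudocount of 0.1, no filter, median-of-ratios scaling, quantile normalization, only the groups compared, a replicate block, the mean of the late neutrophil markers as a covariate, and each library left out in turn. The fit was tested on simulated data.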

Additional observations from a re-analysis of the deposited data

How the results depend on the processing

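Counts of annexin genes called moved as follows. For CpG1668 against PBS (2 called) the count was 0 with no filter and 0 with the late neutrophil covariate, and 0 to 2 with a library left out. For Dox against PBS (3) it was 1 with no filter, 0 with the covariate and 1 to 3 with a library left out. For CpG1668+Dox against PBS (5) it was 0 with the covariate and 4 to 5 with a library left out. For CpG1668+Dox against CpG1668 (4) it was 2 with a pseudocount of 0.1, 1 with no filter, 2 with quantile normalization, 0 with the covariate, 2 with only the groups compared and 1 to 4 with a library left out. For CpG1668+Dox against Dox (1) it was 0 with the covariate, 0 with only the groups compared and 0 to 2 with a library left out. For CpG1668 against Dox (0) and the interaction (0) a left-out library gave 0 to 2 and 0 to 0. Over all genes the count for CpG1668 against PBS (716) was 105 with the covariate and 367 to 488 with a library left out. For Dox against PBS (728) it was 434 with no filter, 1 with the covariate, 355 with only the groups compared and 313 to 752 with a library left out. For CpG1668+Dox against PBS (1890) it was 16 with the covariate and 1346 to 1569 with a library left out. For CpG1668+Dox against CpG1668 (397) it was 0 with the covariate, 257 with only the groups compared and 123 to 447 with a library left out. For CpG1668+Dox against Dox (423) it was 658 with no filter, 168 with the covariate, 216 with only the groups compared and 249 to 414 with a library left out. For CpG1668 against Dox (190) it was 102 with no filter, 123 with median-of-ratios scaling, 86 with the covariate, 72 with only the groups compared and 31 to 173 with a library left out. For the interaction (0) it was 12 with no filter and 0 to 1 with a library left out. With the covariate the sign turned for Anxa3 in Dox against PBS (-0.15, limma adjusted p = 0.89) and for Anxa1 in CpG1668+Dox against CpG1668 (-0.23, adjusted p = 0.63), 2 values that did not pass. Quantile normalization added Anxa5 in CpG1668 against PBS (-0.16, adjusted p = 0.031). It changed the split of higher and lower calls over all genes to 328 and 309 in Dox against PBS (480 and 248), 984 and 1356 in CpG1668+Dox against PBS (1111 and 779), 307 and 66 in CpG1668+Dox against CpG1668 (373 and 24) and 55 and 101 in CpG1668 against Dox (43 and 147), where median-of-ratios scaling gave 47 and 76. Same-numbered libraries showed no clear shared deviation (18 pairs, r from -0.207 to 0.268, 2 over 0.1). This check cannot exclude a small shared effect, and the labels do not say whether equal numbers share an animal or a day. The replicate block gave 78 genes for CpG1668 against Dox and ended the call of Anxa6 in CpG1668+Dox against CpG1668 (adjusted p = 0.075), and it changed no other annexin call. Where the cause of a change is not part of the setting itself, the cause was not tested. Precision is limited by 3 libraries a group and, for Anxa3 in PBS, by few reads.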
